A study of Mus musculus with 26 samples.

Results

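Macrophages labelled as derived from bone marrow (BM), taken from mouse lungs 7 days after lipopolysaccharide (LPS) was given into the trachea, were compared with resident alveolar macrophages (AM) from lungs given no LPS. The groups are set by the labels, and the comparison was chosen with earlier results of these data known. The comparison uses 6 of the 26 RNA-seq libraries of the series: BM day 7 (n = 3) and AM day 0 (n = 3). It addresses how far recruited cells stood from the steady-state resident programme once a week had passed. The other 20 libraries hold AM at days 1, 3 and 7 and BM at days 1 and 3. Of these, the 4 libraries of AM day 7 are set beside the 6 because they share the day and the LPS with BM day 7. The groups were not named by strain, sex or age in the labels used here, although the column names of AM day 0 carry the word Young. No sort gate and no lineage tracer was given for separating BM from AM cells, and whether replicates came from separate mice was not stated, so the p-values below measure only the spread between these samples.

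Alveolar macrophages live in the air spaces, where GM-CSF and TGF-beta from the lung maintain them through the nuclear receptor PPAR-gamma, and they clear surfactant lipid and inhaled particles. They are recognised by Siglec-F, CD11c and little CD11b. LPS, from the wall of Gram-negative bacteria, brings blood monocytes into the lung, where under M-CSF they become macrophages rich in complement C1q and apolipoprotein E, and some take on features of resident cells with time.

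Several properties of the libraries ran with the groups. The AM day 0 libraries have 35780951 to 80816742 counts and one library-name prefix, while BM day 7 has 10054930 to 24729188 and AM day 7 has 9950513 to 27513205 counts, and both carry another prefix. The 4 Y-linked genes summed to 146, 226 and 199.6 CPM (reads of a gene relative to the TMM-scaled size of its library) in AM day 0, against 3.8, 3.7 and 0.1 in BM day 7 and 0.2 to 4.1 in AM day 7. Xist, the RNA that silences 1 X chromosome in female cells, had 144, 0 and 0 CPM in AM day 0 and 374 to 524 CPM in BM day 7. Cell origin, LPS, prefix, depth and the sex-linked RNA therefore cannot be told apart in the comparison of BM day 7 with AM day 0. Replicate 3 of BM day 7 stood apart from replicates 1 and 2: its correlation with them over genes was 0.969 and 0.967, against 0.989 between those 2. It also had the fewest counts of BM day 7 (10054930), and its library number was 20, against 33 and 34. The 10 most abundant genes held 13.6% of its counts, against 9.28% and 9.39% in replicates 1 and 2. The part of these properties in its distance was not tested. Counts of called list members that change without replicate 3 are given with and without it. All replicate pairs within the 3 groups differed by more than counting noise (chi-square per degree of freedom of 7.85 or above). This cannot show that they came from separate mice, since libraries of the same mouse can also differ by more than counting noise. Each library was counted as a separate sample by its label alone.

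Most genes had similar levels in BM day 7 and AM day 0, and the differences were uneven between the BM day 7 libraries. Over 10638 genes with at least 5 CPM in 1 of the groups, replicates 1, 2 and 3 of BM day 7 had 86.9%, 86.6% and 79.5% of genes within 2-fold of the AM day 0 mean on the log2(CPM + 1) scale. The share was 90.8% to 92.1% in the 4 AM day 7 libraries and 96.1% to 99.4% in each AM day 0 library against the other two. Differences past 8-fold made up 1.36%, 1.28% and 3.35% of genes in BM day 7 and 0.592% to 0.818% in AM day 7. Replicate 3 of BM day 7 was thus the library farthest from AM day 0 among these 10.

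**Figure D1:**
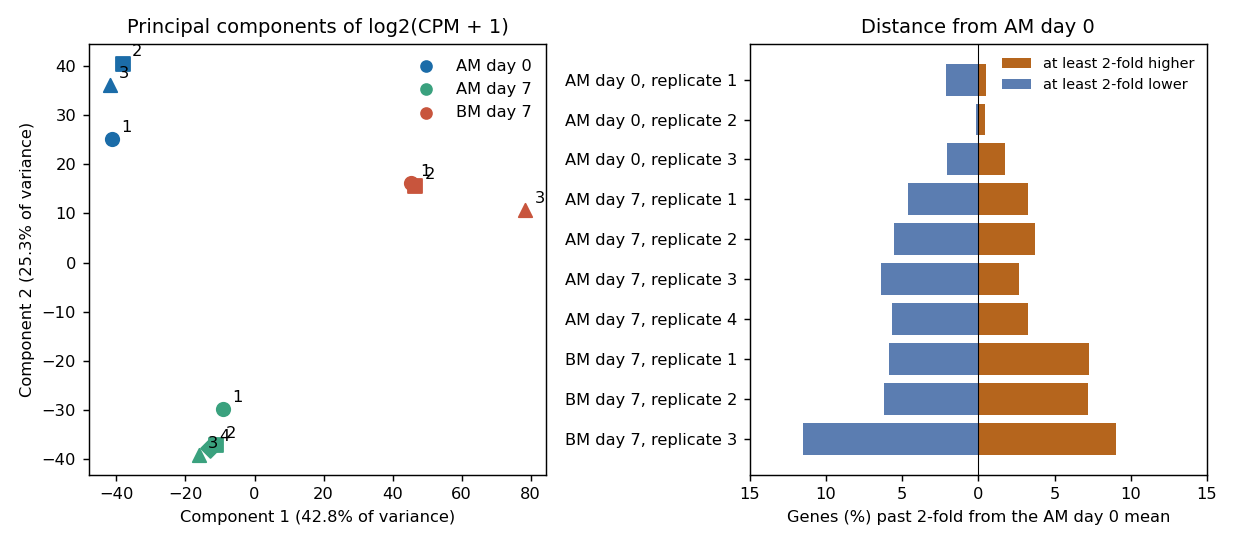
Left, principal components of log2(CPM + 1) for the 10 libraries of AM day 0, AM day 7 and BM day 7, with replicate numbers beside the points. Right, the share of genes (%) at least 2-fold above or below the AM day 0 mean in each library (for AM day 0, the mean of the other replicates). BM day 7 lies apart along component 1, replicate 3 farthest, and AM day 7 apart along component 2.

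In a fit of all 26 libraries with edgeR's quasi-likelihood test, 289 of 17143 genes tested rose in BM day 7 (1.69%) and 81 fell (0.472%) at an adjusted p under 0.05. The spread in that fit comes from all 7 groups. With the 6 libraries fitted alone, 1193 of 15430 genes rose (7.73%) and 1130 fell (7.32%), or 15.1% in either direction against 2.16% with all libraries, so the number of calls depends strongly on which libraries set the spread. Of the 370 genes called with all libraries, 361 were also called with the 6 alone. Called rises were larger than called falls, with a median log2 difference of 2.38 against -1.14. Replicate 3 was the highest of the 3 BM day 7 libraries for 189 of the 289 rises and the lowest for 67 of the 81 falls. The same shares over all genes tested were not counted, so these need not be particular to called genes. Without replicate 3, 204 genes rose and 27 fell. Of the 76 called genes named by a fixed rule, 49 kept the call when each of the 6 libraries was left out in turn. The call was lost for 23, 24 and 16 of them without replicate 1, 2 and 3 of AM day 0, and for 12, 14 and 17 without replicate 1, 2 and 3 of BM day 7. Where a gene described below lost its call, the range of its adjusted p over the 6 fits is given with the words "1 library left out". Called genes described below that the rule does not name, such as Ms4a7, Fcrls, Zeb2 and Spi1, were not checked in this way. Members of gene lists are counted below from the fit of all libraries, with the counts from the 6 libraries alone beside them. Counts without replicate 3 of BM day 7 are added where they differ. The shares over all genes to set beside every such count are 1.69% higher and 0.472% lower with all libraries. With the 6 alone they are 7.73% and 7.32%, so a few members called there can lie near the share of all genes.

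The resident programme was partly present in BM day 7, to a degree that differed between its libraries. Siglecf, the sialic acid receptor Siglec-F used to identify alveolar macrophages, had 534, 447 and 466 CPM in AM day 0 and 177, 177 and 24.1 CPM in BM day 7. The groups did not overlap and replicate 3 was the lowest, but the difference of -1.93 ± 0.62 (log2 ± SE) was not called by edgeR's quasi-likelihood test (adjusted p = 0.16). Car4, a membrane carbonic anhydrase of resident cells, had 481, 440.2 and 546 CPM in AM day 0 and 485, 461 and 17.6 CPM in BM day 7. Replicates 1 and 2 lay within the range of AM day 0 and replicate 3 far below it. Apoe, given with these 2 as a marker of the comparison, is described with the C1q genes below. Both resident markers were detected in every BM day 7 library, Siglecf always below the resident range and Car4 within it in replicates 1 and 2.

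Siglecf: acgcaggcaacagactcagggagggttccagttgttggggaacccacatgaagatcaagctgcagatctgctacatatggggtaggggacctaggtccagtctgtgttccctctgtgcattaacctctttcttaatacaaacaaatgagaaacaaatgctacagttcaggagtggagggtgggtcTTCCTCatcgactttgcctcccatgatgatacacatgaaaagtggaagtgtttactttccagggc
Itgam: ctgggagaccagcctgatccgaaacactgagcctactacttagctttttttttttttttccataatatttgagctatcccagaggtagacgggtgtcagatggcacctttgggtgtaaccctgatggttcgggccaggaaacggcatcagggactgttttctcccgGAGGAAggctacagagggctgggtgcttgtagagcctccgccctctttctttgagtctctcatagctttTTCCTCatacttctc
C1qb: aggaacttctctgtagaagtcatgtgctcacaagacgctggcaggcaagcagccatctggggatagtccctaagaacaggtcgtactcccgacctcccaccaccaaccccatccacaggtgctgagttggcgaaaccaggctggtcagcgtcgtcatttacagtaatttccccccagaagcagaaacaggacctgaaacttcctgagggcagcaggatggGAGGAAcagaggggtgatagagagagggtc
Stab1: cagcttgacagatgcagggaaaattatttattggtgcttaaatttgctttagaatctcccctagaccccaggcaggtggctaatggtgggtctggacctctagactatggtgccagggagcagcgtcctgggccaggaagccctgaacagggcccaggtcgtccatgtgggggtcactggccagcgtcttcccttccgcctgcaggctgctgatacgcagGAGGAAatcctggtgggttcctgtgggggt
The 4 sequences are the 250 bases before the RefSeq start site (GRCm38.p6, 5′ to 3′ on the gene's strand) of the resident marker Siglecf and of 3 genes near 0 CPM in AM day 0 and high in BM day 7. They lie at chr7:43351091-43351340 (+), chr7:128062390-128062639 (+), chr4:136886201-136886450 (-) and chr14:31168642-31168891 (-). Capitals mark GAGGAA, a core of binding sites of the macrophage factor PU.1, on either strand (TTCCTC on the other). The Itgam stretch holds 2 matches and each of the other 3 holds 1. The motif, searched after the values were seen, stands in 23.3% of all 32851 RefSeq start sites at this length, in 29.5% of 288 sites of genes called higher and in 27.3% of 77 sites of genes called lower. A match is only these letters, and the resident marker holds one like the genes that rose.

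Of 25 genes of alveolar macrophage identity, 2 fell in BM day 7 and none rose in the fit of all libraries, and 7 fell and 1 rose with the 6 libraries alone. Without replicate 3 of BM day 7, 1 fell. Their median log2 difference was -1.26 beside 0.00 over all genes tested, and -0.91 without replicate 3 of BM day 7. No overlap was seen for 18 genes that were lower and 1 that was higher, against 18.7% and 16.9% of all genes (35.6% in either direction). As a share of the AM day 0 mean, the median gene of the list stood at 51.7%, 54.4% and 13.4% in replicates 1, 2 and 3 of BM day 7, at 97.4% to 114.5% in AM day 7, at 3.73% to 5.42% in BM day 1 and at 5.80% to 12.9% in BM day 3. The BM groups of other days also differ in their libraries. BM day 1 carries a prefix unlike that of BM day 7 or AM day 0. Replicates 1 and 3 of BM day 3 had 7419 and 10431 genes at 1 CPM or more, against 12256 to 12921 in BM day 7. In bulk RNA, fewer cells that express a gene and less RNA of it per cell cannot be told apart.

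The 25 genes did not move as one. Chil3, which encodes the secreted chitinase-like protein Ym1, had 13643, 11257 and 15723 CPM in AM day 0 and 10238, 11011 and 1729 CPM in BM day 7. Lpl, lipoprotein lipase, had 2227 to 2568 CPM in AM day 0 and 2263, 2369 and 815 CPM in BM day 7. Marco, a scavenger receptor for particles and bacteria, had 375, 201 and 288 CPM in AM day 0 and 412, 443 and 12.2 CPM in BM day 7. For these 3 genes replicates 1 and 2 were near or within the AM day 0 range, while replicate 3 was far lower, and none was called.

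Other identity genes were low in all 3 BM day 7 libraries. Fabp1, a fatty acid-binding protein, had 194, 121 and 223 CPM in AM day 0 and 27.7, 26.2 and 1.65 CPM in BM day 7. Krt19, a keratin that alveolar macrophages express, had 820.4, 776 and 1153 CPM in AM day 0 and 192, 194 and 10.6 CPM in BM day 7. Cidec, a lipid droplet protein, had 356 to 440.2 CPM in AM day 0 and 88.1, 82.8 and 5.36 CPM in BM day 7. Each was lower in 3 of 3 libraries with no overlap, yet the spread among the 26 libraries was wide and none was called in their joint fit. Fabp5, another fatty acid-binding protein, had 156 to 219.6 CPM in AM day 0 and 319, 326 and 675 CPM in BM day 7 and was the 1 member higher without overlap. Bhlhe41, a repressor tied to alveolar macrophage renewal, overlapped between the groups with 84.4 to 119 CPM in AM day 0 and 98.7 to 152 CPM in BM day 7.

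The 2 called falls of the list were both lipid handling genes. Abcg1, the exporter of cholesterol to lipoproteins, had 2513, 2148 and 2044 CPM in AM day 0, 978, 995 and 661 CPM in BM day 7 and 1974 to 2286 CPM in AM day 7. All BM day 7 libraries lay below all resident ones, and the log2 difference was -1.35 ± 0.25 (edgeR's quasi-likelihood test, adjusted p = 0.0012). Olr1, the receptor for oxidised low-density lipoprotein, fell from 534 to 695 CPM to 322, 321 and 136 CPM (log2 -1.26 ± 0.33, edgeR's quasi-likelihood test, adjusted p = 0.038), a call that did not last (0.055 to 0.35 with 1 library left out). Pparg, the nuclear receptor of the resident programme, had 259, 196 and 266 CPM in AM day 0 and 159, 154 and 56.5 CPM in BM day 7, lower in 3 of 3 libraries and not called.

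**Figure D2:**
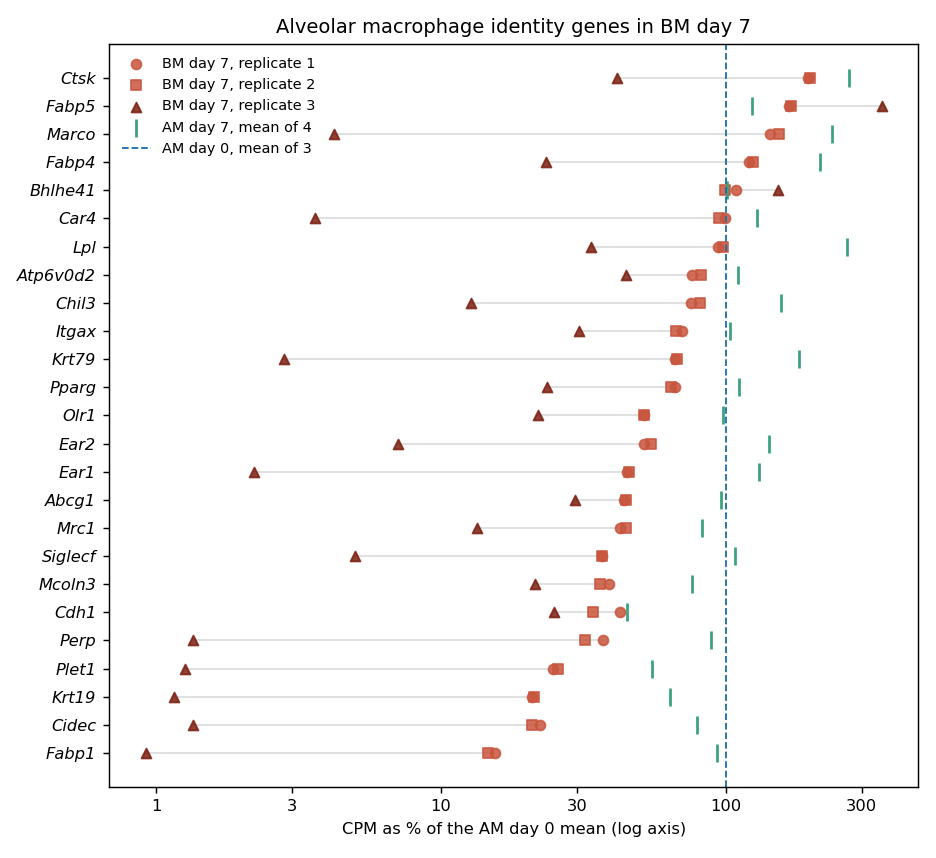
Level of the 25 alveolar macrophage identity genes in each BM day 7 library (points) and the mean of AM day 7 (tick), in CPM as a percentage of the AM day 0 mean (dashed line, 100%) on a log axis. Replicate 3 lies to the left of replicates 1 and 2 for all genes but Fabp5 and Bhlhe41.

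Genes of monocyte-derived and tissue macrophages stood far above the resident level. Of 23 tested, 13 rose and none fell, and 18 rose with the 6 libraries alone, with a median log2 difference of 3.03 (3.13 and 12 rises without replicate 3). C1qa, C1qb and C1qc encode the chains of C1q, which starts the classical complement pathway and binds dying cells, and lie next to each other on chromosome 4 (C1qa at 136895917 to 136898803, GRCm38). C1qa had 2.19, 3.94 and 5.99 CPM in AM day 0 and 759.8, 807 and 625 CPM in BM day 7. C1qb had 3.92, 4.18 and 6.81 CPM against 955, 933 and 855 CPM. C1qc had 1.73, 2.16 and 4.69 CPM against 521, 502 and 521 CPM. All 3 chains rose by 7.51 to 7.53 on the log2 scale and varied little between the BM day 7 libraries, replicate 3 included. For C1qa the log2 difference was 7.51 ± 0.63 (edgeR's quasi-likelihood test, adjusted p = 3.3e-08).

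Apoe, which encodes the lipid carrier apolipoprotein E, had 107, 115 and 126 CPM in AM day 0 and 8700.1, 8958 and 26338 CPM in BM day 7. Every BM day 7 library was far above AM day 0, and replicate 3 was the highest by a wide margin. The log2 difference was 6.99 ± 0.72 (edgeR's quasi-likelihood test, adjusted p = 1.4e-06) and 6.26 without replicate 3. Maf, a macrophage transcription factor, had 3.62 to 6.66 CPM against 116, 119.9 and 87.0 CPM. The groups did not overlap, and replicate 3 was the lowest of BM day 7.

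Stab1, the scavenger receptor stabilin-1, had 2.57, 4.14 and 1.75 CPM in AM day 0 and 312, 296 and 336 CPM in BM day 7. Ms4a7, Pf4, Fcrls and Aif1, genes used to mark monocyte-derived or brain macrophages, also rose, with log2 differences of 5.18, 5.62, 6.89 and 2.80. Their calls were not checked with a library left out, and that of Ms4a7 was near the threshold (adjusted p = 0.044, edgeR's quasi-likelihood test). Fcrls had 0.223 to 0.875 CPM in AM day 0 and 75.6, 73.2 and 19.2 CPM in BM day 7. Cd14, the LPS co-receptor, rose less, from 607 to 939.96 CPM to between 1697 and 1774 CPM (log2 1.10). Genes of long-lived tissue macrophages outside the air space were near 0 in both groups: Folr2, Lyve1 and Cd163 had at most 3.86 CPM in any of the 6 libraries. Mertk, the receptor for dying cells, had 338 to 469 CPM against 235 to 308 CPM, and Adgre1, which encodes F4/80, had 371 to 439 CPM against 793 to 815 CPM. Neither of these last 2 was called in the joint fit. Mertk was lower and Adgre1 higher in BM day 7, both without overlap.

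**Figure D3:**
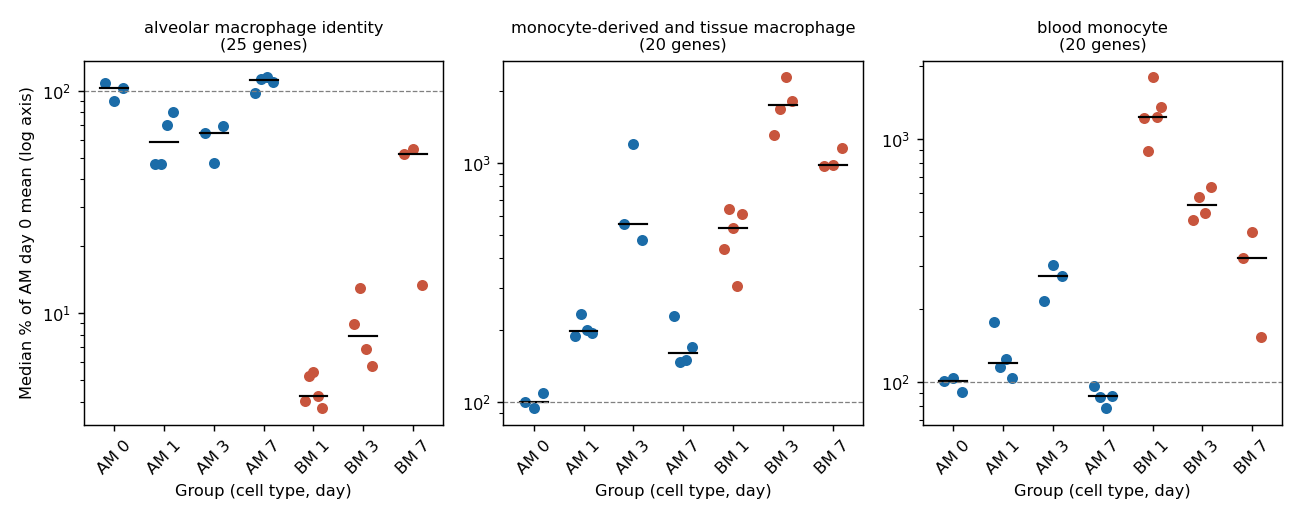
Median level of the genes of 3 lists in each of the 26 libraries, in CPM as a percentage of the AM day 0 mean on a log axis, by cell type and day (lines, group medians). The 3 BM day 7 libraries lie at 51.7%, 54.4% and 13.4% for alveolar macrophage identity, above the BM day 3 libraries (5.80% to 12.9%).

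Blood monocyte genes were split between those above the resident level in every BM day 7 library and those that were not. Of 22 tested, 9 rose and none fell in the fit of all libraries, with 12 and 2 in the 6 alone, and the median log2 difference was 2.06 (2.04 without replicate 3). Itgam, the CD11b integrin chain that alveolar macrophages lack at rest, had 1.99, 1.66 and 0.480 CPM in AM day 0 and 317, 311 and 591 CPM in BM day 7. This was the largest log2 difference among genes detected in all 6 libraries that the rule names, 8.17 ± 0.58 (edgeR's quasi-likelihood test, adjusted p = 9.6e-10), and it was 7.80 without replicate 3. The partner chain Itgb2 differed by only -0.01 ± 0.15, with 1799 to 2118 CPM in AM day 0 and 1755 to 2169 CPM in BM day 7.

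Ly6c2, a surface protein of classical monocytes whose reads may be shared with the near-identical Ly6c1 and Ly6i, had 5.53, 4.43 and 7.85 CPM in AM day 0 and 27.9, 26.6 and 80.5 CPM in BM day 7 (log2 2.92 ± 0.59, edgeR's quasi-likelihood test, adjusted p = 0.0052, and 0.0062 to 0.063 with 1 library left out). Ccr2, the receptor that draws monocytes out of the marrow, had 39.5, 54.1 and 63.2 CPM against 285, 310.3 and 94.6 CPM, with no overlap and no call (adjusted p = 0.1 in edgeR's quasi-likelihood test). Cx3cr1, the fractalkine receptor, had 2.72 to 4.07 CPM against 230.3, 250.2 and 92.2 CPM and was called. F13a1, the clotting factor XIII chain made by monocytes, had 2.27 to 3.31 CPM against 70.6, 76.4 and 282 CPM and was called. So Ly6c2 and F13a1 were highest, and Ccr2 and Cx3cr1 lowest, in replicate 3.

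Some monocyte genes were not above AM day 0 in every library. Of the 22 tested, 13 were higher and 3 lower without overlap, against 16.9% and 18.7% of all genes, and 6 overlapped. Plac8 had 5.93 to 8.25 CPM against 31.2, 34.8 and 2.99 CPM and Ms4a4c had 1.49 to 4.41 CPM against 23.7, 23.5 and 3.19 CPM. Both were above AM day 0 in replicates 1 and 2 of BM day 7 and not in replicate 3. By contrast Fn1, fibronectin, an abundant transcript of both groups, was above AM day 0 in each BM day 7 library. Fn1 had 924 to 1672 CPM in AM day 0 and 3887, 3771 and 7709 CPM in BM day 7 (log2 1.99 ± 0.39, edgeR's quasi-likelihood test, adjusted p = 0.0034).

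**Figure D4:**
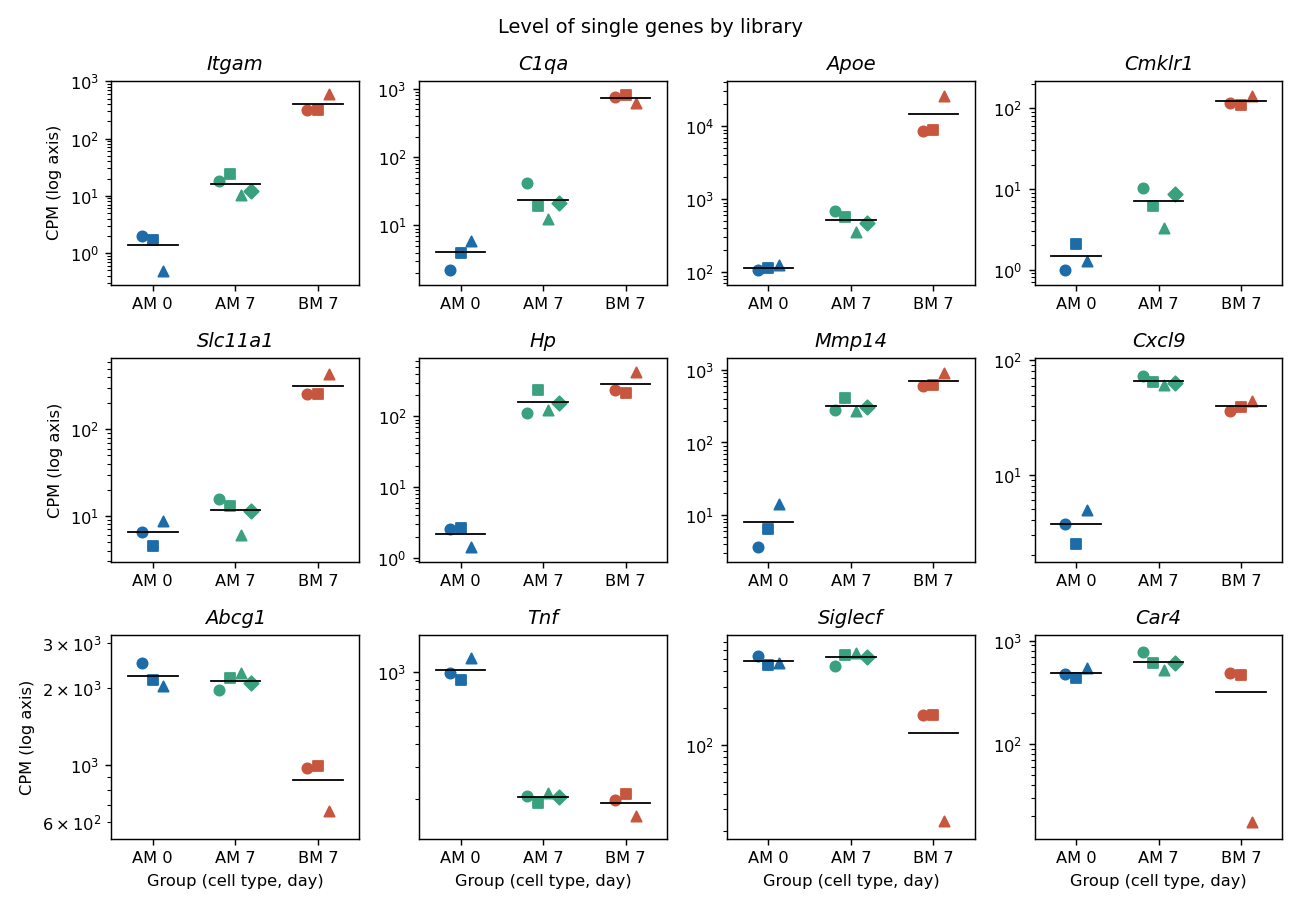
CPM (log axis) of 12 genes in each library of AM day 0, AM day 7 and BM day 7, with group means as lines. Itgam, C1qa, Apoe, Cmklr1 and Slc11a1 are far higher in BM day 7 than in the resident groups, Hp, Mmp14 and Cxcl9 are high in both day 7 groups, and Siglecf and Car4 are lowest in replicate 3 of BM day 7.

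Among 30 macrophage transcription factors 3 rose and 3 fell (7 and 4 with the 6 libraries alone, 2 and 1 without replicate 3), with a median log2 difference of 0.27. The rises included Maf and Zeb2, a repressor that keeps macrophage identity (log2 0.87). Rxra, the partner of PPAR-gamma on DNA, fell from 459, 428 and 313 CPM to 192, 179 and 191 CPM (log2 -1.10 ± 0.24, edgeR's quasi-likelihood test, adjusted p = 0.0089, and 0.0072 to 0.076 with 1 library left out). Bhlhe40, a repressor that acts with Bhlhe41, fell from 589 to 723 CPM to 254 to 307 CPM. Its adjusted p was 0.037 to 0.12 in edgeR's quasi-likelihood test with 1 library left out, and AM day 7 had 267 to 328 CPM. Spi1, which encodes PU.1, fell by 0.76 on the log2 scale. Cebpb, the most abundant factor of the list, differed by -0.28 ± 0.16 and was not called.

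Among growth factor receptors, the M-CSF receptor was higher in BM day 7 and the GM-CSF receptor chains were not called. Csf1r, the M-CSF receptor, had 359, 288 and 269.9 CPM in AM day 0 and 1576, 1581 and 1309.9 CPM in BM day 7, with 706 to 819 CPM in AM day 7. All BM day 7 libraries lay above both resident groups, and the difference from AM day 0 was 2.28 ± 0.21 (edgeR's quasi-likelihood test, adjusted p = 2e-08). Csf1, its ligand, had 2.52 to 12.3 CPM in AM day 0 and 36.7, 40.2 and 98.0 CPM in BM day 7 (adjusted p = 0.013 to 0.19 in edgeR's quasi-likelihood test with 1 library left out). Csf2ra and Csf2rb, the chains of the GM-CSF receptor, had log2 differences of -0.28 and -0.16 and were not called. Tgfbr1 and Tgfbr2, the TGF-beta receptors, differed by 0.44 and -0.71 and were not called. In all, 3 of 18 genes of these pathways rose and none fell (6 and 0 with the 6 libraries alone, 1 and 0 without replicate 3).

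Lipid genes moved in both directions. Of 26 genes of lipid uptake, storage and efflux, 2 rose and 4 fell (4 and 9 with the 6 libraries alone, 2 and 2 without replicate 3). Besides Apoe the rise was Npc2, which carries cholesterol out of lysosomes, with 494 to 649 CPM in AM day 0 and 1132 to 1288 CPM in BM day 7. Cd36, the fatty acid translocase and scavenger receptor, fell from 440.4, 402 and 399.6 CPM to 79.6, 83.2 and 127 CPM (log2 -2.10 ± 0.49, edgeR's quasi-likelihood test, adjusted p = 0.018, and 0.045 to 0.12 with 1 library left out), with 117 to 136 CPM in AM day 7. Dgat2, which makes triglyceride, was the other fall besides Abcg1 and Olr1 (log2 -1.11). Of 20 genes of mitochondrial fatty acid oxidation 1 fell and none rose, and none was called without replicate 3. With the 6 libraries alone 8 fell and 1 rose. Without overlap 12 were lower and 2 higher, against 18.7% and 16.9% of all genes, and the median was -0.39. Hadha, a subunit of the trifunctional enzyme of that pathway, fell from 289 to 336 CPM to 201, 181 and 152 CPM (adjusted p = 0.063 to 0.28 in edgeR's quasi-likelihood test with 1 library left out). Hsd17b4, the peroxisomal bifunctional enzyme, was the 1 call of 30 peroxisome genes, at 243 to 317 CPM against 92.8 to 113 CPM (0.03 to 0.12 with 1 library left out). With the 6 libraries alone 3 of 29 peroxisome genes tested fell, against 7.32% of all genes, and without replicate 3 none was called. None of 29 oxidative phosphorylation and none of 22 cholesterol synthesis genes was called by edgeR's quasi-likelihood test in all libraries or by DESeq2. In each of these 2 lists 1 gene was lower at an unadjusted p under 0.05, and 1 and 2 fell with the 6 libraries alone.

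Lysosomal, complement and scavenger genes rose in part. Of 34 lysosome genes, 10 rose and none fell (11 and 1 with the 6 libraries alone). Over all genes 1.69% rose and 0.472% fell (7.73% and 7.32% with the 6 alone). Without replicate 3 there were 8 rises and a median log2 difference of 0.27 in place of 0.46. Ctsb, the protease cathepsin B, had 1315 to 1562 CPM in AM day 0 and 2413, 2414 and 5826 CPM in BM day 7. Psap, the precursor of the saposins that help digest lipids, had 4937 to 5839.7 CPM against 10168, 9995 and 18803 CPM (log2 1.3 ± 0.2, edgeR's quasi-likelihood test, adjusted p = 0.00019). Lgmn, the protease legumain, rose from 174 to 217 CPM to 591, 637 and 888 CPM. Cd63, a tetraspanin of lysosomes, rose from 69.2 to 125 CPM to 526, 542 and 801 CPM. AM day 7 had 350 to 442 CPM of Cd63.

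Of 21 complement and Fc receptor genes, 8 rose and 1 fell (11 and 2 with the 6 libraries alone, 7 and 0 without replicate 3). Besides the C1q chains, C3ar1, the receptor for the C3a fragment, had 0.826, 2.76 and 6.18 CPM in AM day 0 and 186, 204 and 305 CPM in BM day 7. C3 itself had 173 to 313 CPM against 1007 to 1298 CPM, and AM day 7 also reached 913 to 1547 CPM. Fcgr2b, the inhibitory receptor for IgG, had 153 to 216 CPM against 828, 859 and 1032 CPM, and C5ar1, the C5a receptor, was the fall (331 to 409 CPM against 127 to 199 CPM). Of 22 efferocytosis and scavenging genes 3 rose and 2 fell (6 and 7 with the 6 libraries alone, 3 and 1 without replicate 3). Msr1, the class A scavenger receptor, had 11.6 to 15.4 CPM against 180.4, 206 and 371 CPM, while Tgm2, a transglutaminase, fell with Cd36.

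MHC class II genes separated replicate 3 from the other BM day 7 libraries. H2-Ab1, an MHC class II chain, had 615, 1102 and 1866 CPM in AM day 0 and 2836, 2876 and 835 CPM in BM day 7. Cd74, the class II chaperone, had 1606, 2600.4 and 3793 CPM against 6929, 6965 and 2156 CPM. Replicates 1 and 2 of BM day 7 exceeded all AM day 0 libraries and replicate 3 fell within their range for both. Ctss, the protease that trims the chaperone, was the 1 call of 14 genes (2 rises with the 6 libraries alone), rising from 2569.8 to 3167 CPM to 5159, 5474 and 9507 CPM. Cd86, a costimulator, had 20.3 to 49.2 CPM against 77.2 to 83.9 CPM and did not overlap, without a call in the joint fit.

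Surface receptors that guide and bind these cells were higher in part. Of 16 chemokine receptor genes 4 rose and none fell (6 and 2 with the 6 libraries alone). Besides Cx3cr1 these included Cmklr1, the chemerin receptor, with 1.0 to 2.1 CPM in AM day 0 and 116, 110 and 142 CPM in BM day 7, and Cxcr4, with 186 to 198 CPM against 700.3, 693 and 551 CPM. These 3 were without overlap. Of 22 Siglec and C-type lectin genes Clec4a1, Clec4d and Clec12a rose and none fell in the fit of all libraries. With the 6 libraries alone 6 rose and 5 fell. Without overlap 8 were higher and 7 lower, against 16.9% and 18.7% of all genes. Clec4d, a receptor for microbial glycolipids, had 25.6 to 46.3 CPM against 320.4, 315 and 540 CPM. Mrc1, the mannose receptor, had 2013, 1807 and 1182 CPM against 707, 743 and 223 CPM, and Siglec1, the sialoadhesin of tissue macrophages, 232 to 605 CPM against 131 to 159 CPM. Both were lower in 3 of 3 libraries and not called (adjusted p = 0.071 and 0.079 in edgeR's quasi-likelihood test).

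Of 20 integrin and adhesion genes 2 rose and 1 fell (5 and 3 with the 6 libraries alone, 1 and 0 without replicate 3). Besides Itgam the rise was Alcam, a cell adhesion molecule, with 37.9 to 54.6 CPM in AM day 0 and 114, 129 and 230.1 CPM in BM day 7 (adjusted p = 0.017 to 0.19 in edgeR's quasi-likelihood test with 1 library left out). The fall was Cd44, the hyaluronan receptor, from 2012 to 2161 CPM to 1281, 1319.9 and 1128 CPM, a small difference that was not called with any 1 library left out (0.051 to 0.15). Itgax, which encodes CD11c, had 1732, 1429.8 and 1295 CPM against 1044, 989 and 452 CPM, lower without overlap and not called.

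Inflammatory genes at day 7 were not uniformly above the resting level. Of 30 cytokines and chemokines 5 rose and 2 fell (12 and 5 with the 6 libraries alone, 4 and 1 without replicate 3). Saa3, an acute-phase protein that macrophages make, had 0.250, 1.75 and 3.16 CPM in AM day 0 and 159, 159 and 807 CPM in BM day 7 (log2 7.80 ± 1.11, edgeR's quasi-likelihood test, adjusted p = 0.00014), with 2.89 to 8.03 CPM in AM day 7. Cxcl16, which attracts CXCR6-bearing T cells, had 22.1, 57.1 and 90.7 CPM against 465, 448 and 369 CPM. Cxcl9, the interferon-gamma-induced T cell attractant, rose from 2.48 to 4.89 CPM to 36.0, 38.8 and 44.0 CPM (adjusted p = 0.021 to 0.086 in edgeR's quasi-likelihood test with 1 library left out), and AM day 7 was higher still at 60.7 to 73.3 CPM. Ccl9 and Cxcl3, which draw myeloid cells, also rose (log2 1.78 and 2.32).

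The 2 falls were Tnf and Ccl22. Tnf, tumour necrosis factor, had 985, 898 and 1194 CPM in AM day 0, 198, 213 and 159.9 CPM in BM day 7 and 189 to 216 CPM in AM day 7. Both day 7 groups lay below every AM day 0 library, and the difference of BM day 7 was -2.43 ± 0.42 (edgeR's quasi-likelihood test, adjusted p = 0.00089). Ccl22, a chemokine for regulatory T cells, had 65.5, 154 and 294 CPM in AM day 0 and 23.6, 24.4 and 9.99 CPM in BM day 7. Its adjusted p was 0.022 to 0.23 in edgeR's quasi-likelihood test with 1 library left out, and AM day 7 had 16.4 to 38.7 CPM. Il1b, interleukin 1 beta, had 801 to 1138 CPM against 1895, 2010 and 1396 CPM, higher in 3 of 3 libraries and not called. Of 16 early-response genes that tissue handling can switch on, Ier2 fell, to 267 to 323 CPM from 496 to 921 CPM. Its adjusted p was 0.013 to 0.2 in edgeR's quasi-likelihood test with 1 library left out, and AM day 7 had 255 to 357 CPM. Ier3 rose, and the most abundant of the 16, Fos, differed by 0.31 ± 0.31. With the 6 libraries alone 2 rose and 1 fell, and without replicate 3 1 rose and none fell.

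Of 34 genes of LPS sensing and NF-kB signalling 5 rose and none fell (4 and 0 without replicate 3), against 1.69% and 0.472% of all genes. Of 33 tested with the 6 libraries alone 11 rose and 3 fell, against 7.73% and 7.32% of all genes. Tlr4, the LPS receptor itself, differed by -0.15 on the log2 scale. Aoah, the enzyme that inactivates LPS by cutting its acyl chains, had 1.05, 1.16 and 0.932 CPM in AM day 0, 101, 96.5 and 140.4 CPM in BM day 7 and 16.2 to 23.2 CPM in AM day 7. The 3 groups did not overlap, and the log2 difference of 6.73 ± 0.36 had the lowest adjusted p among named genes (2e-12, edgeR's quasi-likelihood test). Tlr1, which pairs with Tlr2 to sense bacterial lipoprotein, had 2.25 to 3.78 CPM in AM day 0, 38.8, 37.4 and 24.5 CPM in BM day 7 and 0.355 to 1.09 CPM in AM day 7. Socs3, an inhibitor of cytokine signalling, and Irak3, an inhibitor of Toll-like receptor signalling, rose by 1.50 and 1.69 on the log2 scale (for Irak3, adjusted p = 0.039 to 0.18 in edgeR's quasi-likelihood test with 1 library left out).

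Interferon-stimulated genes were mostly higher. Of 23, 6 rose and none fell (7 and 0 without replicate 3), and 16 rose with the 6 libraries alone. Without overlap 19 were higher, against 16.9% of all genes, and the median log2 difference was 1.79 (1.89 without replicate 3). Oasl2, an antiviral protein of the oligoadenylate synthetase family, had 1.67, 2.59 and 2.68 CPM in AM day 0 and 37.4, 30.2 and 34.8 CPM in BM day 7 (log2 3.88 ± 0.44, edgeR's quasi-likelihood test, adjusted p = 1.1e-06). Irf7, the factor that amplifies interferon output, had 4.57 to 9.26 CPM against 41.0, 46.2 and 21.4 CPM. Gbp3, a guanylate-binding GTPase, had 5.73 to 7.36 CPM against 63.4, 60.7 and 37.7 CPM, with 37.7 to 41.3 CPM in AM day 7. Levels stayed low in absolute terms, and Stat2, the most abundant member, differed by -0.02 ± 0.36.

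Repair and matrix genes were mostly higher without overlap (18 of 27, and 4 lower), against 16.9% higher and 18.7% lower over all genes. Of the 27, 7 were called higher and none lower, and 16 higher and 2 lower with the 6 libraries alone. The median log2 difference was 1.86 (1.57 without replicate 3). Mmp14, a membrane-bound matrix protease, had 3.64, 6.43 and 14.5 CPM in AM day 0 and 591, 623 and 910.1 CPM in BM day 7 (log2 6.44 ± 0.47, edgeR's quasi-likelihood test, adjusted p = 1.1e-09). Mmp12, the macrophage elastase, had 9.79 to 21.5 CPM against 205, 204 and 299 CPM. Arg1, arginase 1, had 0.587 to 0.819 CPM against 33.0, 25.1 and 182 CPM, and Vegfa, the vascular growth factor, had 3.33 to 10.7 CPM against 176, 177 and 380.1 CPM. Arg1, Vegfa and Ecm1, an extracellular matrix protein, were highest in replicate 3, and the adjusted p of edgeR's quasi-likelihood test was 0.007 to 0.063 for Arg1 and 0.017 to 0.079 for Vegfa with 1 library left out. Ereg, the growth factor epiregulin, had 227 to 338 CPM in AM day 0 and 34.4, 41.2 and 6.80 CPM in BM day 7, lower without overlap and not called.

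Slc11a1, the metal transporter Nramp1 of phagosomes, had 6.51, 4.48 and 8.73 CPM in AM day 0, 255, 256 and 439.6 CPM in BM day 7 and 5.99 to 15.9 CPM in AM day 7. The log2 difference was 5.59 ± 0.41 (edgeR's quasi-likelihood test, adjusted p = 6.8e-10), and AM day 7 overlapped with AM day 0. It was 1 of 3 rises among 17 iron and haem genes, with no fall (4 and 3 with the 6 libraries alone, 2 and 0 without replicate 3). Of 16 glycolysis genes 2 rose and none fell (5 and 1 with the 6 libraries alone, 1 and 0 without replicate 3). Over all genes 1.69% rose and 0.472% fell (7.73% and 7.32% with the 6 alone). The 2 rises were the glucose transporter Slc2a1 (26.6 to 37.3 CPM against 117 to 174 CPM) and Pfkl, a phosphofructokinase. For Pfkl the adjusted p was 0.043 to 0.48 in edgeR's quasi-likelihood test with 1 library left out.

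Cell cycle genes were lower in BM day 7, though none of 24 was called in the fit of all libraries. In that fit 3 were lower at an unadjusted p under 0.05, and DESeq2 called 1 lower. With the 6 libraries alone edgeR's quasi-likelihood test called 23 lower. Without overlap 23 were lower, against 18.7% of all genes, and the median log2 difference was -1.33 (-1.31 without replicate 3). Top2a, the topoisomerase of dividing cells, had 106, 95.0 and 60.2 CPM in AM day 0 and 36.2, 43.5 and 34.4 CPM in BM day 7. Rrm2, which makes deoxynucleotides, had 42.8 to 53.7 CPM against 11.0 to 13.9 CPM. Mki67, the proliferation antigen, overlapped between the groups, with 181, 171 and 86.1 CPM against 95.9, 108 and 105 CPM. AM day 7 had a median of -0.55 for the list, and Top2a there stood at 36.2 to 62.3 CPM.

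Among genes outside the lists, the largest called rise was Cbln1, a secreted protein known from synapses. It had 0 counts in all 3 AM day 0 libraries and 31.2, 27.8 and 2.16 CPM in BM day 7. AM day 7 had 32.3 to 63.3 CPM, so both day 7 groups held it. Bc1, a short neuronal RNA, had at most 0.113 CPM in AM day 0, 18.8, 17 and 9.89 CPM in BM day 7 and 9.68 to 16.7 CPM in AM day 7 (adjusted p = 0.0097 to 0.053 in edgeR's quasi-likelihood test with 1 library left out). Alox5, the 5-lipoxygenase that starts leukotriene synthesis, fell from 451, 356 and 391 CPM to 99.9, 89.0 and 36.9 CPM (log2 -2.41 ± 0.38, edgeR's quasi-likelihood test, adjusted p = 0.00021). Ccnd2, a D-type cyclin, fell from 332 to 349.7 CPM to 123, 113 and 19.1 CPM (adjusted p = 0.025 to 0.074 in edgeR's quasi-likelihood test with 1 library left out), and Rab44, a large Rab GTPase, from 366 to 455 CPM to 122, 116 and 32.5 CPM.

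The AM day 7 libraries, which share day, LPS and prefix with BM day 7 and have a like level of Y-linked RNA, stood near BM day 7 for some called genes and near AM day 0 for others. In the fit of all libraries edgeR's quasi-likelihood test called 0.677% of genes between AM day 7 and AM day 0 (0.408% higher and 0.268% lower in AM day 7) and 1.77% between BM day 7 and AM day 7 (1.48% higher and 0.286% lower in BM day 7). These comparisons share libraries with that of BM day 7 and AM day 0 and are not independent of it. Hp, haptoglobin, had 1.41 to 2.64 CPM in AM day 0, 113 to 239 CPM in AM day 7 and 237, 218 and 418 CPM in BM day 7. Lcn2, the iron-trapping protein lipocalin 2, had 0.250 to 1.02 CPM, 10.3 to 23.0 CPM and 16.4, 13.4 and 19.7 CPM in the same order. For these, as for Mmp14, Cbln1, Bc1, Tnf, Cd36, Bhlhe40, Ccl22, Ier2, Gbp3 and Cd63, the AM day 7 libraries stood near BM day 7. For Abcg1, Slc11a1, Maf and F13a1 they stood near AM day 0, and for C1qa, Apoe and Itgam in between. C1qa had 12.6 to 41.4 CPM in AM day 7, Apoe 359.9 to 690.3 CPM and Itgam 10.2 to 23.8 CPM. Against AM day 7 the log2 differences of BM day 7 were 4.95 for C1qa, 4.81 for Apoe and 4.65 for Itgam, each called by edgeR's quasi-likelihood test (adjusted p = 1e-06, 1.6e-05 and 3.7e-07).

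**Figure D5:**
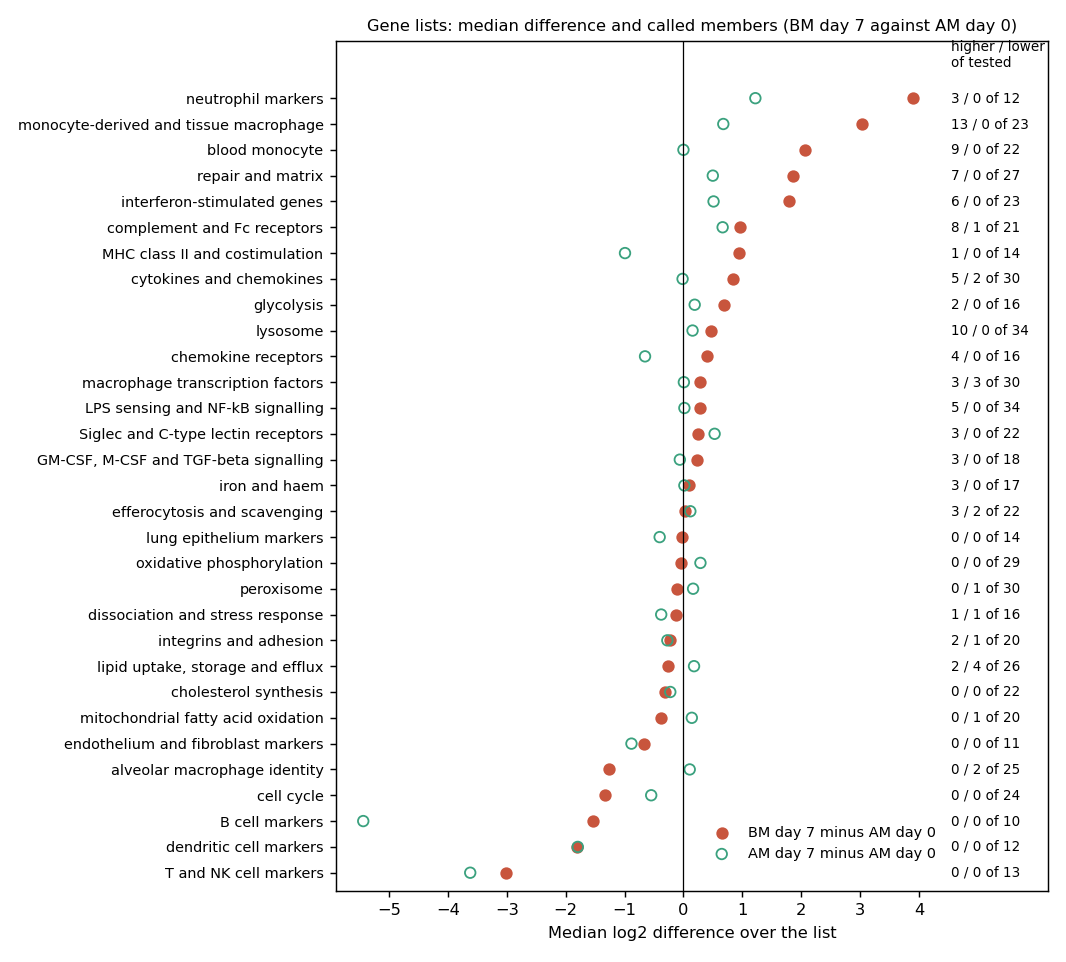
Median log2 difference over the tested genes of each list, for BM day 7 (filled) and AM day 7 (open), both against AM day 0, with the numbers of members called higher and lower in BM day 7 at the right. Monocyte-derived and tissue macrophage genes stand at 3.03 in BM day 7, and alveolar macrophage identity at -1.26 in BM day 7 and 0.11 in AM day 7.

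Markers of other cell types also differed, and their part in the results above was not tested. Neutrophil markers summed to 75.7 to 94.4 CPM in AM day 0, 188, 170 and 514 CPM in BM day 7 and 86.6 to 126 CPM in AM day 7, with 3 of 12 called higher (Lcn2, S100a8 and Csf3r), 2 without replicate 3. Of 8 tested in the 6 libraries alone 5 rose, and DESeq2 called 6 higher. Of the 12, 8 were higher without overlap, against 16.9% of all genes. With 1 library left out, edgeR's quasi-likelihood test gave an adjusted p of 0.0084 to 0.063 for S100a8 and 0.0093 to 0.29 for Csf3r. The median log2 difference of the list was 3.90 (2.34 without replicate 3). Within it, Ly6g had 0 CPM in AM day 0 and at most 0.309 CPM in BM day 7, and Camp at most 0.326 CPM. S100a9, another marker of that list, had 3.30, 4.08 and 108 CPM in BM day 7. None of the B cell, T and NK cell or dendritic cell markers was called in the joint fit with edgeR's quasi-likelihood test. At an unadjusted p under 0.05 there were 0, 1 and 3 such markers, and DESeq2 called 0, 0 and 2. B cell markers summed to 217 to 286 CPM in AM day 0, 212, 216 and 29.5 CPM in BM day 7 and 17.4 to 43.7 CPM in AM day 7, so replicate 3 stood apart here too. T and NK cell markers summed to 51.2 to 93.5 CPM in AM day 0 and 24.5, 30.4 and 8.65 CPM in BM day 7, with 7 of 12 lower with the 6 libraries alone. Dendritic cell markers summed to 218 to 481 CPM against 171 to 250.2 CPM. Fitted alone, the 6 libraries gave 1 B cell marker that fell, and 2 dendritic cell markers that rose and 6 that fell. Epcam, an epithelial adhesion molecule, had 124, 187 and 148 CPM in AM day 0, 8.71, 9.14 and 2.57 CPM in BM day 7 and 153 to 176 CPM in AM day 7, whereas Sftpc, the surfactant protein of alveolar epithelium, had 17 to 30.3 CPM in AM day 0 and 17.3 to 29.7 CPM in BM day 7. None of 14 epithelial and none of 11 endothelial and fibroblast markers was called in the joint fit with edgeR's quasi-likelihood test or by DESeq2, with 2 and 0 at an unadjusted p under 0.05. In the 6 libraries alone 1 epithelial marker rose and 1 fell, and 1 of the endothelial and fibroblast markers fell. Eosinophil, mast cell and erythroid markers were below the filter in all cases.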

How the data were processed

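RNA from 26 libraries in 7 groups was measured by stranded, poly(A)-selected RNA-seq, per the labels. The authors deposited 1 table of raw read counts per Ensembl gene (55487 genes), made with FastQC 0.11.9, Trimmomatic 0.39, HISAT2 2.1.0 and featureCounts 2.0.0 on GRCm38, per the submitters' processing notes. The annotation release and the strand setting of the counting are not given in the sources used here, so reads of overlapping antisense genes cannot be told apart. GENCODE M21 gave symbols and positions. All 37 mitochondrial genes of the table are at 0 counts in each library.

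A single edgeR 4.0.16 model (R 4.3.3) covered all groups, with TMM scaling, filterByExpr (minimum count 10, 17143 genes left with 99.9% of counts), the robust quasi-likelihood test and Benjamini-Hochberg adjustment over these genes. A gene was called at an adjusted p under 0.05. CPM are TMM-scaled. The procedure was tested on simulated data in which all genes and groups had the same spread. That test therefore cannot decide which libraries should set the spread.

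The main fit did not pair libraries by replicate number. After group means were removed, libraries with the same number in the title correlated at -0.069, -0.043 and -0.091. By the numbers in the descriptions the correlations were 0.005 and 0.081. With 3 libraries per group these values cannot show whether the libraries were paired. Alternatives were DESeq2 1.42.0 and its size factors, library size alone, no filter or a stricter one (5 CPM in 3 libraries), the 6 libraries alone, 2 libraries with few genes left out, replicate blocks, a Y-linked covariate, thinning to 9176202 counts, a test against 2-fold, leaving out each of the 6 libraries and, added after seeing the data, a fit to AM day 0, AM day 7 and BM day 7 alone.

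The comparison and the 34 gene lists were chosen with earlier results of these data known. Named genes are, in each list, up to 4 called members with the largest difference, at least 5 CPM and no overlap, and the most abundant member, plus the 10 largest rises and falls and a short set of markers (109 genes in all). Other list members are named for their role or for their pattern, after their values were seen. Some members of the lists are counted but not reported by name here.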

Additional observations from a re-analysis of the deposited data

Results flagged for a closer look

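Groups of 4 libraries were screened for a single library standing apart from the others, measured as the gap to its nearest neighbour divided by the range of log2(CPM + 1). This was done for 109 genes in AM day 7. The groups of 3, BM day 7 and AM day 0, are too small for it. Ccl22 in AM day 7 had a ratio of 0.924 and Ddx3y in AM day 7 one of 0.935, above the critical value (95%) of Dixon's test for 4 samples. About 1 in 20 genes is expected to pass it by chance, and 2 of 109 did. Ccl22 ranged from 16.4 to 38.7 CPM and Ddx3y from 0.152 to 1.70 CPM in those libraries. Between BM day 7 and AM day 0 Ddx3y was called lower, but not with any 1 of the 6 libraries left out (adjusted p = 0.11 to 0.3 in edgeR's quasi-likelihood test).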

How the results depend on the processing

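The numbers of genes higher and lower in BM day 7 (289 and 81) depended on the libraries that set the spread: 1193 and 1130 with the 6 libraries alone, 1616 and 1586 with AM day 0, AM day 7 and BM day 7 alone (added after seeing the data), and 495 and 212 without BM day 1 replicate 3 and BM day 3 replicate 1. DESeq2's Wald test gave 446 and 194, the Y-linked covariate 162 and 35, and the test against 2-fold 119 and 2. Leaving out 1 of the 6 libraries gave 170 to 233 higher and 27 to 48 lower. No filter, a stricter filter, other scalings and thinning kept both counts within 1.5 times. The replicate block by title number gave 611 and 521 with the 6 libraries (against 1193 and 1130 without it) and 256 and 67 with all groups. The block by description number gave 280 and 81. In the labels these libraries share only a number. Of the 76 called genes named, 37 kept call and direction under all 20 alternatives. Ddx3y alone turned direction, to 1.37 on the log2 scale with the Y-linked covariate, which ended 24 other calls. The cause was not tested. Median log2 differences of most lists moved little without replicate 3 of BM day 7, that of neutrophil markers from 3.90 to 2.34. Depth limits genes near 0 CPM in AM day 0, where a fold rests on few counts.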
